A study of Mus musculus with 16 samples.

Results

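The microRNA (miRNA) arrays of this series compared the lateral ventricle (LV) wall of WT and Dgcr8+/- mice. Described here are 8 mature miRNAs, the 5 main arms of the miR-200 family and the 3 of the cluster of miR-183, miR-96 and miR-182, among 1881 mouse miRNAs on each array. They were found by their names in the scanner files: mmu-miR-200a-3p, mmu-miR-200b-3p, mmu-miR-429-3p, mmu-miR-200c-3p, mmu-miR-141-3p, mmu-miR-183-5p, mmu-miR-96-5p and mmu-miR-182-5p. The tissue came from 8 WT littermates and 8 Dgcr8+/- mice, all male, 8 months old and on the C57BL/6J background, with 1 mouse per array. The Dgcr8+/- mice carried a single working copy of Dgcr8 in all cells, the labels name no other allele or treatment for either group, and the arrays held no probe for the Dgcr8 transcript itself.

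Dgcr8 binds the primary transcripts of most miRNAs, and with the nuclease Drosha it cuts the hairpin precursors out of them. Genes of the miR-200 family are transcribed in epithelial cells, where their products repress Zeb1 and Zeb2, transcription factors that favor a mesenchymal state. The cluster of miR-183, miR-96 and miR-182 is best known from sensory cells such as photoreceptors and the hair cells of the inner ear. The LV wall is mixed tissue, with ciliated ependymal cells, glia, neurons and vessels, and choroid plexus lies nearby. In such bulk samples, fewer cells of a type and less RNA per cell cannot be told apart.

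The 8 sequences are shown because several differ by very few bases, and each array signal depends on probes that must tell them apart. All 8 matched a RefSeq mature sequence (GRCm38.p6). They are written 5′ to 3′, with the seed, bases 2 to 8, in capitals.
miR-200a-3p: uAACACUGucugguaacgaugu
miR-141-3p: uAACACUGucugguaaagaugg
miR-200b-3p: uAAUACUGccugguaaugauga
miR-429-3p: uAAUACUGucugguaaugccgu
miR-200c-3p: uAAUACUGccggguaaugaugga
miR-183-5p: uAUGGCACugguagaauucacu
miR-96-5p: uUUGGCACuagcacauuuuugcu
miR-182-5p: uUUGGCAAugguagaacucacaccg

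The miR-200 family has 2 seeds, which differ by 1 base. The first is shared by miR-200a-3p and miR-141-3p, which differ by 2 of 22 aligned bases, C17A and U22G, where positions count from the 5′ end, the first base belongs to miR-200a-3p and the second to miR-141-3p. The other is shared by miR-200b-3p, miR-429-3p and miR-200c-3p. Over their first 22 bases, miR-200b-3p and miR-200c-3p differ by 2, U11G and A22G, with the base of miR-200b-3p given first. MiR-183-5p and miR-182-5p differ by 4 of 22 bases, A2U, C8A, U17C and U22A, with the base of miR-183-5p first. The 3 members of that cluster have 3 different seeds. In the RefSeq table of 1738 mature mouse miRNAs, 1 further miRNA, miR-1271-5p, has the seed of a member, that of miR-96-5p, and it was matched to no name on the array.

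The 8 miRNAs come from 3 genomic clusters, so that pairs close in sequence come from different places. Mir200b (chr4:156055681-156055750), Mir200a (chr4:156054896-156054985) and Mir429 (chr4:156053905-156053987) span 1846 bases on the minus strand of GRCm38.p6. They lie within Gm13648, between Ttll10 and 9430015G10Rik. Mir200c (chr6:124718322-124718390) and Mir141 (chr6:124717914-124717985) span 477 bases of the minus strand between Phb2 and Ptpn6 and within no other gene of the table. Mir183 (chr6:30169668-30169737), Mir96 (chr6:30169446-30169551) and Mir182 (chr6:30165918-30165992) span 3820 bases of the minus strand within Mirc35hg, between Nrf1 and Ube2h.

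The arrays themselves differed in ways that bear on dim signals. They lay on 2 slides, slide 1 with 6 WT and 2 Dgcr8+/- arrays and slide 2 with 2 WT and 6 Dgcr8+/- arrays. The negative control spots, whose probes match no miRNA, had a mean signal of 2.41 ± 0.48 scanner units (SD, n = 8) on WT arrays and 3.27 ± 0.74 (SD, n = 8) on Dgcr8+/- arrays. This difference, 0.857 (2-sided exact permutation test, p = 0.0183), was 0.342 when the genotypes were compared within slides (exact permutation test within slides, p = 0.179). The hybridization spike-ins of Dgcr8+/- replicate 2 and WT replicate 6 stood apart from those of the other arrays, and results are also given without these arrays. Both lie on slide 1, and within slides these spike-ins differed by −0.54 on the log2 scale (exact permutation test within slides, p = 0.00128). The software detected 495 to 540 miRNAs per WT array and 467 to 492 per Dgcr8+/- array, with no overlap (exact permutation test, p = 0.000155, the smallest possible). The part of these array-wide differences in the signals below was not tested. Of the miRNAs taken as marks of ciliated cells, 5 of 9 were detected on all 16 arrays, as were 3 of 4 marks of choroid plexus epithelium.

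Detection was the first result. The Feature Extraction software called 7 of the 8 miRNAs detected on no array. The eighth, miR-200a-3p, was called detected on 1 of 16 arrays, that of WT replicate 1, with a total gene signal of 3.57. In the table of total gene signals, the other 127 of the 128 values of the 8 miRNAs stood at 0.1, the value given to what was not detected. All 8 opposite arms of the hairpins were detected on no array either. Among all 1881 miRNAs, 1316 (70%) were detected on no array and 430 on all 16.

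Genotypes were compared by limma only for miRNAs detected on at least 8 arrays, 495 in all, of which 138 (27.9%) were lower and 140 (28.3%) higher in the mutants when the adjusted p had to be below 0.05. The split was 293 lower and 0 higher without normalization, 262 and 0 with the labeling spike-ins, and 126 and 210 when arrays were scaled to the 75th percentile of probes that every array detected. None of the 8 miRNAs passed this filter, so the planned fit gave no fold change for any of them. What the scanner files do hold is the background-corrected signal of each spot, which can fall below 0. Each miRNA had 2 probes with 15 spots per probe. The mean over spots and probes was therefore compared in scanner units, after quantile normalization, which gives all arrays the same distribution of signals, and without it. When limma was run with no filter and values under 1 set to 1, 2 of the 8 miRNAs were called lower and 0 higher (0 higher at an unadjusted p under 0.05 as well), beside 8.45% and 6.59% of all 1881. MiR-200c-3p, miR-141-3p, miR-183-5p and miR-182-5p stood at the floor on all arrays and could not be called. The 1881 also include miRNAs at the floor throughout, so these shares are no even background for the 8. The comparison in scanner units used all 12870 ways of dividing the arrays into 8 and 8, with Benjamini-Hochberg adjustment over all 1881 miRNAs. It was chosen after the detection calls were seen, whereas the main plan set no test for members under the filter.

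The signals of the Mir200b/Mir200a/Mir429 cluster were lower in Dgcr8+/- mice than in WT mice for miR-200a-3p and miR-200b-3p, whereas those of the other 5 miRNAs and, after quantile normalization, of miR-429-3p did not pass the test. Both calls concern signals that the software did not call detected, on all arrays but 1. Of all 1881 miRNAs, 10.2% were called lower and 8.61% higher by this test. Among the 1316 miRNAs detected on no array, to which miR-200b-3p belongs, 2.43% were called lower and 2.05% higher. By its mean quantile-normalized signal, miR-200b-3p stood above 88.7% of these 1316, so that share comes mostly from dimmer signals.

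MiR-200a-3p, one of the repressors of Zeb1 and Zeb2, had a quantile-normalized signal of 2.74 at the lowest, 5.76 at the median and 7.22 at the highest in WT mice. In Dgcr8+/- mice these values were 2.26, 2.86 and 5.45. The genotypes overlapped, as WT replicate 6 lay among the Dgcr8+/- mice and Dgcr8+/- replicate 3 lay among the WT mice, while 5 of 8 WT mice were above every Dgcr8+/- mouse. The means were 5.35 ± 1.48 (SD, n = 8) and 3.14 ± 1.04 (SD, n = 8), a difference of −2.21 (standard error 0.640, 2-sided exact permutation test, p = 0.00606, adjusted p = 0.0353). The adjusted p rose above the threshold when any one of 11 of the 16 mice was left out, to between 0.0549 and 0.0634, with differences between −2.58 and −1.94 over all 16 omissions. It was also above the threshold when arrays were scaled to the 75th percentile of probes that every array detected (−1.59, exact permutation test, adjusted p = 0.0816). The same held with a normexp background correction (−2.00, adjusted p = 0.0503) and with replicate number as a block (−2.21, adjusted p = 0.0525). In that block p was 0.00781 (exact permutation test by sign changes), the smallest that it allows.

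MiR-200b-3p, from the neighboring hairpin and with the other seed, had a quantile-normalized signal of 1.94 at the lowest, 3.74 at the median and 4.49 at the highest in WT mice. In Dgcr8+/- mice the signal was −0.15 at the lowest, 1.27 at the median and 3.29 at the highest. Dgcr8+/- replicates 3 and 4 overlapped with WT mice, and the other 6 were below every WT mouse. The means were 3.53 ± 0.87 (SD, n = 8) and 1.33 ± 1.09 (SD, n = 8), a difference of −2.19 (standard error 0.494, exact permutation test, p = 0.0014, adjusted p = 0.0110). Leaving out any single mouse kept the adjusted p below the threshold, between 0.00642 and 0.0209. With replicate number as a block, the adjusted p was 0.0525. There p was 0.00781 (exact permutation test by sign changes), the smallest that this block allows.

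MiR-429-3p, which shares its seed with miR-200b-3p and is encoded last in the cluster, had a quantile-normalized signal of 3.62 at the lowest, 5.02 at the median and 7.32 at the highest in WT mice. The values were 2.34, 3.59 and 6.05 in Dgcr8+/- mice. The groups overlapped over most of their ranges, and the difference of −1.03 (standard error 0.606, exact permutation test, p = 0.111, adjusted p = 0.322) did not pass the test. Dgcr8+/- replicate 3 had the highest signal of the Dgcr8+/- mice for all 3 miRNAs of the cluster.

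**Figure D1:**
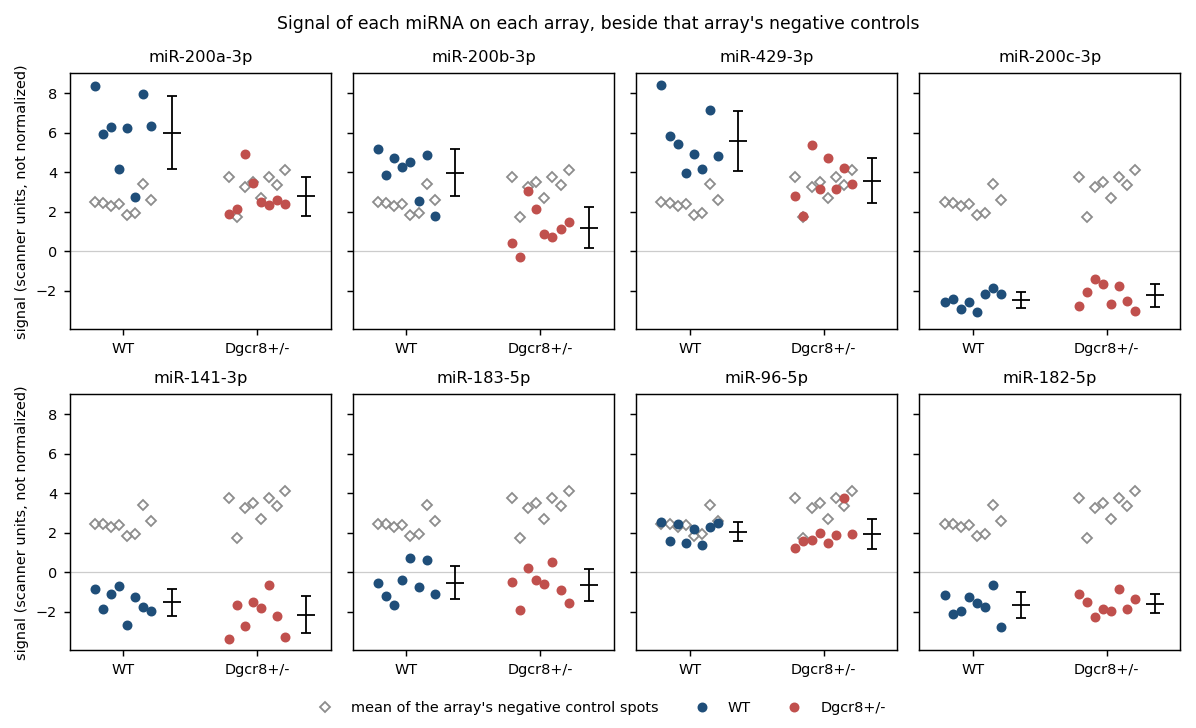
Background-corrected signal of the 8 miRNAs in scanner units, without normalization between arrays, with 1 filled point per mouse (WT blue, Dgcr8+/- red), the mean and SD as black bars, and the mean of the same array's negative control spots as open diamonds in replicate order. MiR-200a-3p and miR-429-3p lay above the diamonds on all 8 WT arrays, and miR-200c-3p, miR-141-3p, miR-183-5p and miR-182-5p lay below them on all 16 arrays.

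Without normalization, each signal could be set against the negative controls of its own array. On this scale the signal of miR-200a-3p was 6.00 ± 1.84 (SD, n = 8) in WT mice and above the negative control mean on all 8 arrays. In Dgcr8+/- mice it was 2.78 ± 0.98 (SD, n = 8) and above the control mean on 2 arrays. The signal of miR-200b-3p was above the control mean on 7 WT arrays and on 0 Dgcr8+/- arrays, with means of 3.97 ± 1.2 (SD, n = 8) and 1.18 ± 1.04 (SD, n = 8).

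The signal of miR-429-3p, at 5.59 ± 1.53 (SD, n = 8) in WT mice, compared with 3.57 ± 1.15 (SD, n = 8) in Dgcr8+/- mice, was above the control mean on 8 WT and 4 Dgcr8+/- arrays. Without normalization all 3 miRNAs of the cluster were lower in Dgcr8+/- mice, with differences of −3.22 for miR-200a-3p (exact permutation test, adjusted p = 0.0113), −2.79 for miR-200b-3p (adjusted p = 0.0075) and −2.01 for miR-429-3p (adjusted p = 0.0408). On this scale 19.2% of all miRNAs and 4.71% of those detected on no array were called lower, and 0.266% and 0.38% were called higher. The summed signal of all miRNA spots was also lower in Dgcr8+/- mice (exact permutation test, p = 0.0042), and its part in these differences was not tested.

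The calls made by the software on single spots gave a second readout of the same scans. A spot is called positive and significant when its signal exceeds the local background. For miR-200b-3p, 121 of 237 spots were called so on WT arrays and 49 of 235 on Dgcr8+/- arrays. Per array, the share was 51.1% ± 13.5 (SD, n = 8) in WT mice, compared with 20.9% ± 11.6 (SD, n = 8) in Dgcr8+/- mice, a difference of −30.2 percentage points (exact permutation test, p = 0.000622).

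For miR-200a-3p the share was 68.3% ± 13.4 (SD, n = 8) against 42.3% ± 12.1 (SD, n = 8), a difference of −26.1 points (exact permutation test, p = 0.00233). For miR-429-3p it was 70.0% ± 17.4 (SD, n = 8) against 51.4% ± 17.3 (SD, n = 8), a difference of −18.7 points that did not pass the test (exact permutation test, p = 0.0527). These p-values are not adjusted for the 8 miRNAs compared, and those of the other 5 were between 0.392 and 0.877. The calls rest on the same spots as the signals above. No other miRNA was tested in this way, so no share of all miRNAs passing the test stands beside them. Compared within slides, an alternative added after the data were seen, the differences were −34.4 points for miR-200b-3p and −31.3 for miR-200a-3p (exact permutation test within slides, p = 0.00128 for both), and −21.2 for miR-429-3p (p = 0.0638). Of the negative control spots, 33.0% ± 7.6 (SD, n = 8) were called on WT arrays and 46.0% ± 7.8 (SD, n = 8) on Dgcr8+/- arrays, and this share also differed by slide, with 32.1% on slide 1 and 46.8% on slide 2. Within slides the genotypes differed in it by 7.42 points (exact permutation test within slides, p = 0.051). The share for miR-200a-3p exceeded that of the same array's controls on 8 WT and 2 Dgcr8+/- arrays. A spot well above background, the software's stricter call, occurred once in all the spots of the 8 miRNAs, for miR-200a-3p on a WT array.

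**Figure D2:**
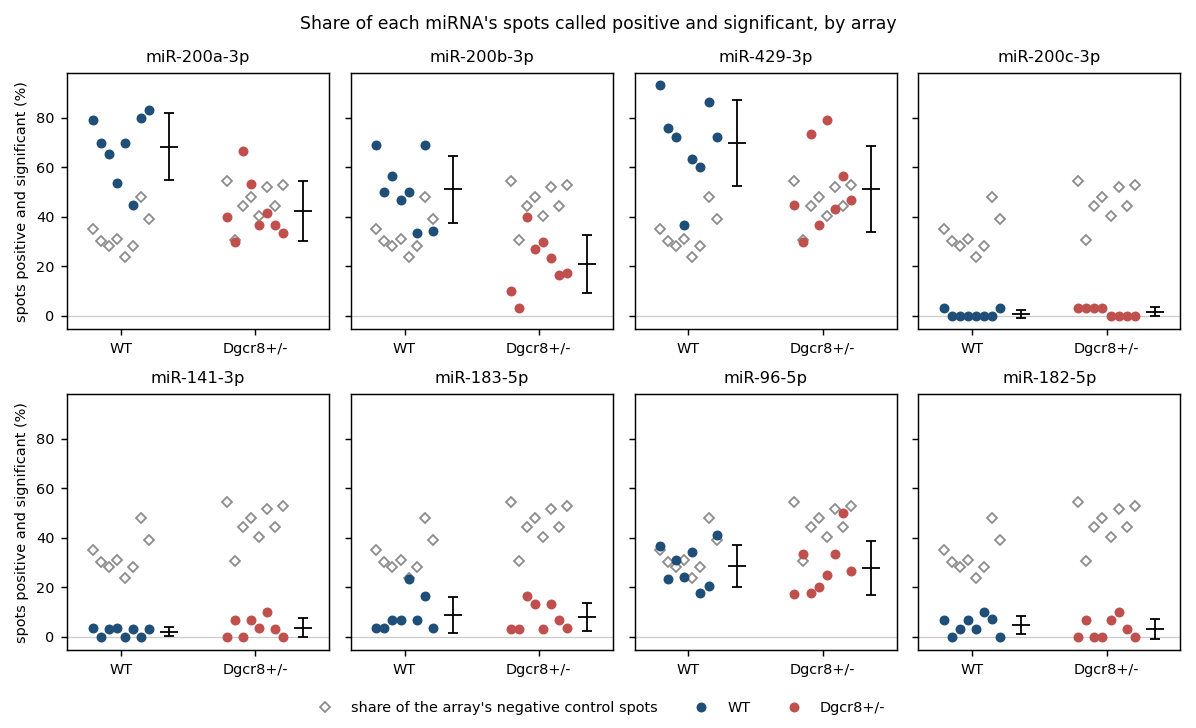
Percentage of each miRNA's spots called positive and significant on each array (WT blue, Dgcr8+/- red, mean and SD as black bars), with the percentage of that array's negative control spots as open diamonds. The 8 WT points of miR-200a-3p and miR-429-3p lay above their diamonds, and the 8 Dgcr8+/- points of miR-200b-3p lay below theirs.

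Both probes of each miRNA of the cluster differed in the same direction. Without normalization, the differences were −4.55 and −1.90 for the probes of miR-200a-3p, −2.08 and −3.5 for those of miR-200b-3p, and −1.86 and −2.16 for those of miR-429-3p. After quantile normalization they were −3.11 and −1.31, −1.85 and −2.54, and −0.93 and −1.13. After quantile normalization the unadjusted p of the exact permutation test was 0.00435 and 0.0516 for the probes of miR-200a-3p, 0.00637 and 0.0014 for those of miR-200b-3p, and 0.0915 and 0.172 for those of miR-429-3p.

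Since the genotypes were unevenly divided between slides, the differences were also computed within each slide. For miR-200a-3p the difference of quantile-normalized means was −2.25 on slide 1 and −2.69 on slide 2, and for miR-200b-3p it was −2.90 and −2.15. Compared within slides, they were −2.47 (exact permutation test within slides, p = 0.00765, adjusted p = 0.0432) and −2.53 (p = 0.00128, adjusted p = 0.0128). For miR-429-3p the differences were −1.0 on slide 1 and −1.51 on slide 2, and the value within slides was −1.26 (exact permutation test within slides, p = 0.101). On a single slide, with 6 mice against 2, no p below 0.0357 is possible. Without Dgcr8+/- replicate 2 and WT replicate 6, the differences were −2.58 for miR-200a-3p and −2.16 for miR-200b-3p (exact permutation test, adjusted p = 0.0183 for both).

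**Figure D3:**
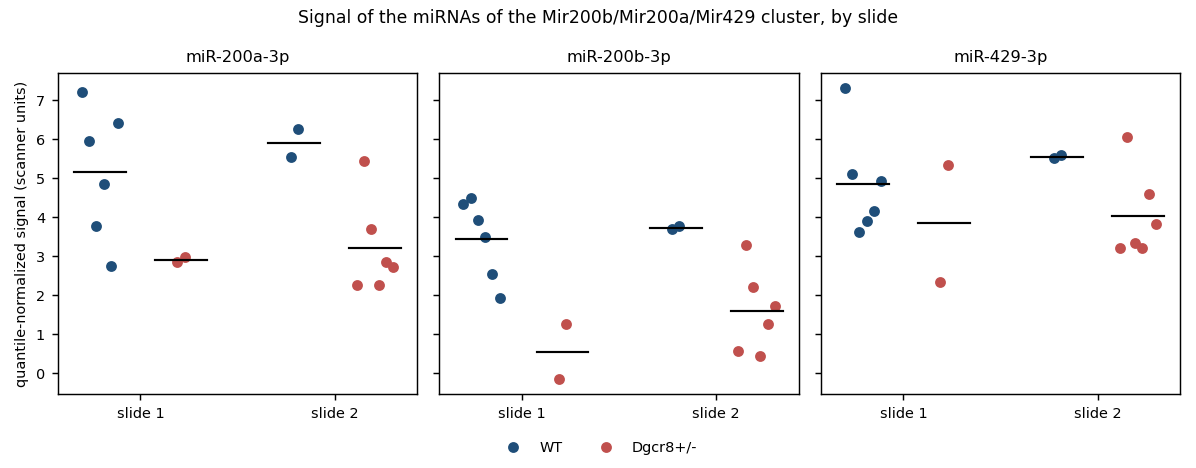
Quantile-normalized signal in scanner units of the 3 miRNAs of the Mir200b/Mir200a/Mir429 cluster, by slide and genotype, with 1 point per mouse and the mean as a black line. For miR-200a-3p and miR-200b-3p the Dgcr8+/- mean lay below the WT mean on both slides, with differences between −2.90 and −2.15.

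The signals of miR-200c-3p and miR-141-3p, the miR-200 members encoded on chromosome 6, were below 0 on all 16 arrays on both scales and below the negative control mean of each array. The quantile-normalized signal of miR-200c-3p was −2.92 at the lowest, −2.53 at the median and −1.88 at the highest in WT mice, and −2.82, −2.23 and −1.60 in Dgcr8+/- mice. The difference was 0.23 (standard error 0.196, exact permutation test, p = 0.264). That of miR-141-3p was −2.55, −1.49 and −0.86 in WT mice and −3.15, −1.88 and −1.10 in Dgcr8+/- mice, a difference of −0.60 (standard error 0.346, exact permutation test, p = 0.104).

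The genotypes overlapped widely for both miRNAs after quantile normalization. With arrays scaled to the 75th percentile of probes that every array detected, miR-141-3p was called lower (−1.37, exact permutation test, adjusted p = 0.0322). Of the spots of miR-200c-3p, 2 of 236 on WT arrays and 4 of 238 on Dgcr8+/- arrays were called positive. Of the spots of miR-141-3p, 5 of 232 and 9 of 238 were called positive. Thus on the WT arrays where the probes of miR-200b-3p and miR-200a-3p read above the negative controls, those of the miRNAs closest to them in sequence, miR-200c-3p and miR-141-3p, did not. Different probes can differ in brightness for equal amounts, so these values do not order the amounts of the miRNAs.

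Of the sensory cell cluster, miR-183-5p and miR-182-5p read below the negative control mean on all 16 arrays. The quantile-normalized signal of miR-183-5p was −1.48 at the lowest, −0.81 at the median and 0.63 at the highest in WT mice, and −2.02, −0.48 and 0.24 in Dgcr8+/- mice. Its difference was −0.020 (standard error 0.370, exact permutation test, p = 0.959). That of miR-182-5p ran from −2.44 to −0.81 in WT mice and from −2.48 to −1.0 in the mutants, which differed by 0.061 (standard error 0.245, exact permutation test, p = 0.809).

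MiR-96-5p, the third product of the cluster, read above the negative control mean on some arrays and below it on most. Its quantile-normalized signal was 1.35 at the lowest, 1.80 at the median and 2.67 at the highest in WT mice, and 1.40, 1.94 and 4.06 in Dgcr8+/- mice. The difference was 0.28 (standard error 0.335, exact permutation test, p = 0.495) and fell to 0.00183 without Dgcr8+/- replicate 7, which had the highest value. Without normalization the signal was above the control mean on 3 WT arrays and 1 Dgcr8+/- array, and 67 of 233 and 66 of 235 spots were called positive. For miR-183-5p these counts were 21 of 237 and 19 of 239, and for miR-182-5p 11 of 236 and 8 of 236.

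The opposite arms of the 8 hairpins, which Dicer releases from the same precursors, were below the negative control mean on all 16 arrays. Their differences ranged from −0.44 for miR-200b-5p to 0.52 for miR-200a-5p after quantile normalization, and none passed the test (exact permutation test, lowest p = 0.057, for miR-200a-5p, adjusted p = 0.204). For the arms opposite to the miRNAs that were lower, the quantile-normalized signal of miR-200a-5p was −2.26 ± 0.40 (SD, n = 8) in WT mice, compared with −1.74 ± 0.57 (SD, n = 8) in Dgcr8+/- mice. That of miR-200b-5p was −1.54 ± 0.58 (SD, n = 8) and −1.98 ± 0.62 (SD, n = 8). As no opposite arm was detected, these arms give no second measurement of the hairpins.

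Since the negative controls were brighter on Dgcr8+/- arrays, the differences grew when each array's negative control mean was subtracted, an alternative added after the data were seen. They were then −4.08 for miR-200a-3p, −3.64 for miR-200b-3p and −2.87 for miR-429-3p (exact permutation test, adjusted p = 0.00246, 0.00246 and 0.00475), and the other 5 miRNAs were between −1.49 and −0.62 and did not pass the test. On this scale, however, 38% of all miRNAs and 28.2% of those detected on no array were called lower, and the median difference of the latter was −0.91. The median was 0.071 after quantile normalization and −0.051 without normalization. Of the opposite arms, miR-200b-5p and miR-182-3p were called lower after the subtraction (exact permutation test, adjusted p = 0.0449 and 0.0443). The growth was not seen on both slides. The genotypes differed in the control mean by −0.022 on slide 1 and 0.707 on slide 2. For miR-200a-3p, the difference on slide 1 was −3.36 without normalization and −3.33 after the subtraction. On slide 2 these values were −4.02 and −4.73.

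**Figure D4:**
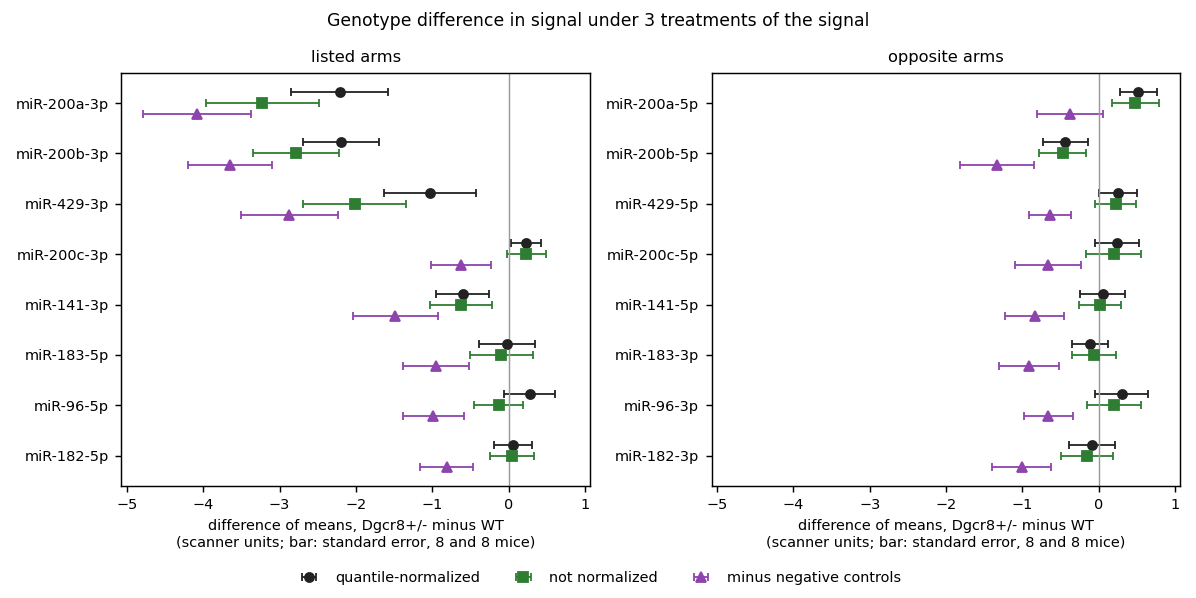
Difference of the mean signals, Dgcr8+/- minus WT, in scanner units with its standard error (8 and 8 mice), for the 8 miRNAs on the left and the opposite arms of their hairpins on the right, after quantile normalization (black circles), without normalization (green squares) and after subtraction of each array's negative control mean (purple triangles). MiR-200a-3p, miR-200b-3p and miR-429-3p lay between −4.08 and −1.03 on all 3 scales, and after quantile normalization all other points lay between −0.60 and 0.52.

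Other miRNAs known from epithelia were compared from a list chosen with earlier results of these data known. Of these 6 miRNAs, 3 passed the detection filter, and 2 of them were lower and 0 higher, where 27.9% and 28.3% of the 495 tested miRNAs were so called. MiR-192-5p, known from gut, liver and kidney epithelium, differed by −0.60 ± 0.12 on the log2 scale (SE, limma, adjusted p = 5.64e-04), and miR-194-5p, from the same clusters, by −0.41 ± 0.07 (SE, limma, adjusted p = 1.55e-04). MiR-203-3p, known from skin, had −0.13 (adjusted p = 0.416 from limma). MiR-375-3p was detected on 6 arrays, and miR-205-5p and miR-215-5p were detected on none. The median log2 fold change of the 3 that passed the filter was −0.41, beside 0.04 over the 495 miRNAs tested. The summed signal of the 6, with values below 0 counted as 0, was 141 to 162 in WT mice and 75.6 to 129 in Dgcr8+/- mice. It includes miR-192-5p and miR-194-5p, with WT log2 means of 5.73 and 6.26, beside 3.47 for miR-203-3p. The sum is therefore not separate from the 2 calls above.

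Among the miRNAs of choroid plexus epithelium, which lies within the ventricle, miR-204-5p was lower with a log2 fold change of −0.29 (adjusted p = 0.0136 from limma), miR-211-3p was higher with 0.50 (adjusted p = 7.56e-05), and miR-211-5p had 0.0021 (adjusted p = 0.989). Of the marks of ciliated cells, 5 were tested and 0 passed the test in either direction, beside the same 27.9% and 28.3% of all tested. Their log2 fold changes were between 0.15 and 0.35, with a median of 0.29 (limma, adjusted p between 0.0594 and 0.217). The part of these cell types in the signals of miR-200a-3p and miR-200b-3p was not tested.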

How the data were processed

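Total RNA of the LV wall of 16 mice was labeled with Cy3 and hybridized to 1-color Agilent mouse miRNA arrays. The authors deposited scanner output with the background-corrected intensity of every spot and no normalization between arrays (Feature Extraction version 10.7.3.1 per the file headers, 10.5.1.1 in the submitters' processing notes). They also deposited a table of total gene signals, an intensity per miRNA that equals the value in the scanner output. Groups and replicate numbers came from the labels.

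Here, spots marked as outliers were dropped (60 of 3840 member spots), spots were averaged per probe, probes were quantile-normalized with limma 3.58.1 in R 4.3.3, and probes were averaged per miRNA. For limma, values under 1 were set to 1 before log2, and miRNAs detected on at least 8 arrays were tested with Benjamini-Hochberg adjustment over 495. The linear signal of all 1881 miRNAs was compared by a 2-sided exact permutation test of the difference of means over 12870 groupings, for which the smallest p is 0.000155. In the main plan, a member under the filter was to get its detection and its signal per array and no test. The permutation test, run on the members because none passed the filter, departs from that plan. This test and the subtraction of negative controls were added after the data were seen. Code was tested on simulated data.

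Every listed miRNA and its opposite arm are named, by a rule that otherwise names miRNAs whose levels are most like a tested member, of which there were none. The members, the lists of epithelial, ciliated and choroid plexus miRNAs and the comparisons were chosen with earlier results of these data known. The number of arrays limits the precision. The labels name no pairs, and equal replicate numbers were not taken as pairs. The correlation of their deviations over the 495 miRNAs was between −0.141 and 0.496 and over 0.1 in 5 of 8. These values do not settle whether the mice were paired, and results with replicate number as a block are given as an alternative. Mature sequences, loci and neighboring genes were taken from RefSeq tables of GRCm38.p6.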

Additional observations from a re-analysis of the deposited data

Results flagged for a closer look

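Among the 16 groups of 8 mice formed by the 8 miRNAs and 2 genotypes, 2 held a mouse far from the others by Dixon's test, which by chance marks about 1 in 20 groups. The quantile-normalized signal of miR-200a-3p was 5.45 in Dgcr8+/- replicate 3. Without this mouse the genotype difference of miR-200a-3p was −2.57 (exact permutation test, adjusted p = 0.0183). The signal of miR-96-5p was 4.06 in Dgcr8+/- replicate 7. Without this mouse the genotype difference of miR-96-5p was 0.00183 (exact permutation test, p = 0.994).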

How the results depend on the processing

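No member and no opposite arm passed the detection filter, so no log2 fold change of a tested member exists. Every limma fit but the one without a filter left them all out and could call none of them. In the fit without a filter, values under 1 were set to 1. All values of the opposite arms stood at that floor, so these arms could not be called there either. Of the members, this fit called 2 lower, miR-200a-3p (adjusted p = 0.0246) and miR-200b-3p (adjusted p = 0.00432), and 0 higher. Their fold changes depend on that floor and are not given. Over all 495 tested miRNAs, limma called 293 lower and 0 higher without normalization, 262 lower and 0 higher with the labeling spike-ins (at an unadjusted p under 0.05, 0 higher in both from limma, and 2 and 0 from the methods' t-test), and 89 higher on slide 1 alone. Leaving out a mouse gave 133 to 151 lower and 126 to 170 higher. The methods' t-test found 88 lower and 51 higher at the study's thresholds, taken here as an unadjusted p under 0.05 and a minimum log2 fold change. These 2 counts are therefore not comparable with the others, which use the adjusted p and no fold change cutoff.

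By the exact permutation test, 2 members had a lower signal and 0 a higher one (0 at an unadjusted p under 0.05 as well). The number lower was 1 with normexp of the median signal, 0 on slide 1 or slide 2 alone and 0 with replicate number as a block, and 1 to 2 when a mouse was left out. With the replicate block, 256 sign changes bound p at 0.00781, and miR-200a-3p and miR-200b-3p both stood at that bound. Their differences were −2.21 and −2.19 (exact permutation test by sign changes, adjusted p = 0.0525 for both). The block moved the counts of limma to 140 lower and 147 higher. The difference of miR-200a-3p kept its direction under all 12 alternatives but lost its call under 5, among them scaling to the 75th percentile of probes that every array detected (−1.59, adjusted p = 0.0816) and normexp (−2.00, adjusted p = 0.0503). That of miR-200b-3p ranged from −3.64 to −1.94 and lost its call in 3, the single slides and the replicate block, the last with p at its bound. On a single slide the exact permutation test cannot give a p below 0.0357, so a call there was hardly possible.

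The sign of members with no call was not settled. The signal difference of miR-200c-3p was −0.65 under that scaling, −0.36 with the 75th percentile of all probes, −0.083 on slide 2 alone and −0.62 after subtraction of negative controls. That of miR-182-5p was −0.51, −0.32, −0.17 and −0.81 in these settings. That of miR-96-5p was −0.13 without normalization, −0.14 with the spike-ins and −0.98 after subtraction of negative controls. That of miR-183-5p was 0.48 with normexp and 0.16 without the arrays with distant spike-ins. When a mouse was left out, it ranged from −0.14 to 0.18 for miR-183-5p and from −0.052 to 0.19 for miR-182-5p. MiR-141-3p was called lower when arrays were scaled to the probes detected throughout (−1.37, adjusted p = 0.0322). The cause of these changes was not tested. Total gene signals, cyclic loess, other floors, log2 means and array weights work on floored or undetected values and give no linear difference. Signals this close to the negative controls limit all member results.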
